A study of Mus musculus with 12 samples.

Results

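Ces1d, Ppp1r1a, Slc15a5 and 1700001O22Rik are described here across the tibialis anterior muscle of wild-type and dystrophic mice. They are 4 of the 24421 entries of the count table, and they were selected on the size of their fall, since their counts were far lower in the dystrophic mice. That choice used the contrast between the groups, so the size of their difference is a description and carries no test. The tibialis anterior is a hindlimb muscle made mostly of fast fibres. RNA was sequenced in 12 libraries from male mice of 4 months, 6 of strain C57Bl/6, called WT, and 6 of strain mdx/mTR. As background, mdx is a mutation of the dystrophin gene Dmd, and mTR stands for the telomerase RNA of the mouse, whose gene symbol is Terc. No group carried mdx alone or mTR alone, so effects of one allele and of both together cannot be told apart. The labels used here give no litter, zygosity, telomerase-deficient generation or genetic background for mdx/mTR, and nothing in them says whether a library came from 1 animal or a pool, so p-values measure the spread between these libraries.

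As background, Ces1d encodes a carboxylesterase, a serine hydrolase of the endoplasmic reticulum that cleaves ester bonds, triglycerides among them, and is best known from liver and adipose tissue. Ppp1r1a encodes inhibitor-1 of protein phosphatase 1 (PP1). Once phosphorylated by the cyclic AMP-dependent kinase PKA, inhibitor-1 blocks the PP1 catalytic subunit, so that PKA activity and PP1 activity are coupled. In muscle, PP1 acts on glycogen enzymes through targeting subunits. Slc15a5 belongs to the Slc15 family of proton-coupled carriers, whose better known members move dipeptides, tripeptides and histidine. 1700001O22Rik is a protein-coding gene known only by its RIKEN clone name, and no function is given for it here.

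All 4 genes lie on the minus strand of different chromosomes in GRCm38.p6. Ces1d spans 31.7 kb at chr8:93166072-93197804, inside a cluster of carboxylesterase genes. Ppp1r1a spans 7.75 kb at chr15:103530279-103538027. Slc15a5 spans 96.3 kb at chr6:137983586-138079916, and 1700001O22Rik spans 8.17 kb at chr2:30795563-30803729. No annotated exon of another gene overlaps their exons (0 bases in GENCODE M21). Of the 50-base stretches in the longest coding transcript, 1.28% of those of Ces1d also occur in another gene, Ces1b or Ces1g among them, against 0% for Ppp1r1a, Slc15a5 and 1700001O22Rik.

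RefSeq promoter entries were matched for 2 of the 4 genes, Slc15a5 and 1700001O22Rik, and not for Ces1d or Ppp1r1a. The start regions of this pair are shown, since they were also the pair of the 4 with the most similar levels across libraries. The sequences are those of GRCm38.p6, written 5′ to 3′ on the minus strand and ending at the base before the transcript: 250 bases at chr6:138079917-138080166 for Slc15a5 and 185 bases at chr2:30803730-30803914 for 1700001O22Rik. Capitals mark E-boxes (CANNTG), the letters bound by myogenic basic helix-loop-helix factors and by others.
Slc15a5: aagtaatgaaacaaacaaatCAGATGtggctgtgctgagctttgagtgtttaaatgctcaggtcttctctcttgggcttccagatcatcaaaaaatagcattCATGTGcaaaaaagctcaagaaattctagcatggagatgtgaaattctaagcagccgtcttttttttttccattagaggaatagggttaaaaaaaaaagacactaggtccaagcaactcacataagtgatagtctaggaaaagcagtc
1700001O22Rik: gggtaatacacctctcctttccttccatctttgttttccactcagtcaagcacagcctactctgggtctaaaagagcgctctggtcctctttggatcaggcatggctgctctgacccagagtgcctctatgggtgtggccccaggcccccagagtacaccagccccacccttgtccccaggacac
The Slc15a5 stretch holds 2 E-boxes, CAGATG at -230 and CATGTG at -148 from the start, and its GC content is 37.2%. That of 1700001O22Rik holds none and has a GC content of 56.8%, and its 300-base promoter entry has E-boxes at bases 3 and 29 of the transcript. Both strands were searched, and CANNTG, which reads the same on either strand, occurs in 72.3% of the 32851 promoter entries of 300 bases. The MEF3 motif TCAGGTT, which occurs in 4.07% of entries, was not found in either entry. The TATA box motif TATAAA (13.6% of entries) was not found, nor was the MEF2 motif (0.557%). The printed stretch of 1700001O22Rik overlaps an exon of the noncoding gene 4930527E20Rik, which was not analysed here.

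The 6 WT libraries held between 36903560 and 40981012 counts, and the 6 mdx/mTR libraries between 35136327 and 60330410. Levels are given as CPM, counts brought to a common library size by the trimmed mean of M-values. A count of 3, which bounds what a count of 0 allows, equals 0.0460 to 0.0837 CPM and covers counting error only. Dmd was at 228 to 244 CPM in WT and 35.2 to 56.4 CPM in mdx/mTR, lower in all 6 libraries that carry the mdx label. Terc had 2 counts in all, both in a WT library, too few to check its allele. Of 13937 genes tested with edgeR, 6736 (48.3%) had an adjusted p under 0.05, 3479 (25.0%) of all tested genes being higher and 3257 (23.4%) lower in mdx/mTR. The 2 groups did not overlap for 3512 genes (25.2%), and for 1751 (12.6%) they did not overlap with mdx/mTR lower. Libraries WT 2, mdx/mTR 3 and mdx/mTR 5 stood apart from their groups in single genes or marker sums, given below beside the results they touch.

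Each of the 4 genes averaged 5.89% to 8.78% of its WT level in mdx/mTR. The lowest WT library lay above the highest mdx/mTR library for all 4, as it did for 12.6% of tested genes, and since the choice used this contrast nothing is read from that count. Ces1d, the hydrolase, had a lowest, median and highest level of 29.2, 36.5 and 50.9 CPM in WT and of 1.83, 3.31 and 4.37 CPM in mdx/mTR. WT 1 was the highest library and mdx/mTR 2 the lowest, and the lowest WT library was 6.68 times the highest mdx/mTR library. Its means were 37.5 ± 7.59 and 3.23 ± 1.04 CPM (SD, n = 6 each), 11.6-fold lower in mdx/mTR, from 1052 to 1831 counts per WT library and 109 to 260 per mdx/mTR library. The edgeR log2 fold change was -3.54 ± 0.21 (SE).

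Ppp1r1a, the PP1 inhibitor, had a lowest, median and highest level of 26.0, 31.1 and 43.6 CPM in WT and of 1.43, 2.41 and 6.37 CPM in mdx/mTR. Library mdx/mTR 3 was the highest of its group, and WT 2 and WT 4 were the highest of theirs at 42.8 and 43.6 CPM. The means were 33.8 ± 7.55 and 2.97 ± 1.81 CPM (SD, n = 6 each), 11.4-fold lower, with a log2 fold change of -3.54 ± 0.30 (SE). Without mdx/mTR 3 the log2 fold change was -3.88. The coefficient of variation of Ppp1r1a was 22.3% in WT and 61.0% in mdx/mTR, the widest spread of the 4 genes in mdx/mTR.

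Slc15a5, the carrier, had a lowest, median and highest level of 6.28, 10.9 and 20.2 CPM in WT and of 0.645, 0.893 and 1.42 CPM in mdx/mTR. In WT, libraries 1 and 5 were high at 19.4 and 20.2 CPM, library 2 was low, and the other 3 lay between 10.4 and 10.9 CPM. The means were 13.0 ± 5.53 and 0.971 ± 0.332 CPM (SD, n = 6 each), 13.4-fold lower, with a log2 fold change of -3.76 ± 0.30 (SE). Counts were 225 to 773 per WT library and 33 to 66 per mdx/mTR library.

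1700001O22Rik had a lowest, median and highest level of 4.75, 11.4 and 18.5 CPM in WT and of 0.436, 0.558 and 1.31 CPM in mdx/mTR. WT 2 was again the lowest and WT 5 the highest of their group, and mdx/mTR 3 stood above the other 5 mdx/mTR libraries, which lay between 0.436 and 0.660 CPM. The means were 11.4 ± 4.61 and 0.669 ± 0.325 CPM (SD, n = 6 each), 17.0-fold lower, with a log2 fold change of -4.14 ± 0.33 (SE). Counts were 170 to 710 per WT library and 25 to 48 per mdx/mTR library, the lowest of the 4 genes in either group.

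**Figure D1:**
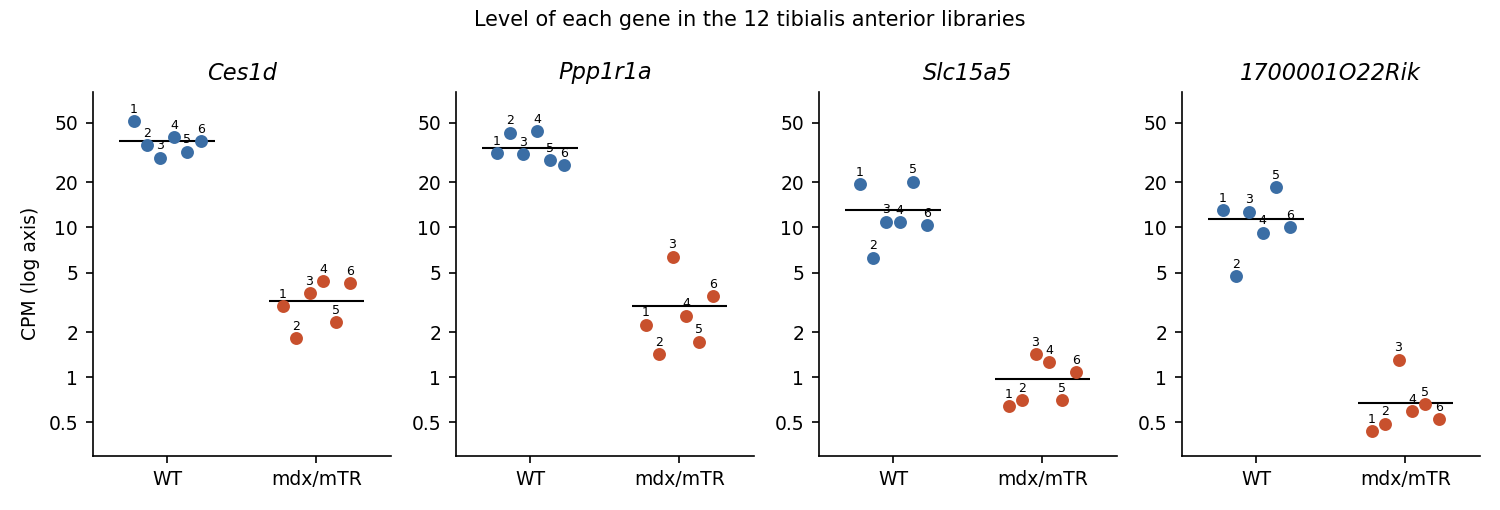
CPM on a log axis for each of the 12 libraries, with a panel per gene. Points are libraries with their replicate number, and the horizontal line is the group mean. The 2 groups are apart in every panel, by the widest gap for Ces1d (6.68 times) and the narrowest for 1700001O22Rik (3.62 times).

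The 4 genes ranked 15, 14, 12 and 8 by size of fall among the 13937 tested genes, in the order Ces1d, Ppp1r1a, Slc15a5 and 1700001O22Rik. Among genes with a mean over both groups of at least 5 CPM, an adjusted p under 0.05 in edgeR and no overlap of the groups, the 6 with the lowest log2 fold changes were these 4 with Dach2 (-4.60), a transcriptional cofactor gene, and Pgk1 (-3.82), a glycolytic enzyme gene. Ces1d was the last of the 6. Just outside came 0610040J01Rik at -3.42 ± 0.21 (SE), with 15.6 ± 1.61 CPM in WT and 1.49 ± 0.712 in mdx/mTR, and Dusp26, a phosphatase gene, at -3.36 ± 0.18, with 88.5 ± 7.47 and 8.67 ± 3.01 CPM (SD, n = 6 each). The authors' deposited table gives smaller log2 fold changes for the 4 genes: -3.32 for Ces1d, -2.90 for Ppp1r1a, -3.30 for Slc15a5 and -3.34 for 1700001O22Rik.

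The 4 genes also varied among libraries of 1 group more than most genes. The biological coefficient of variation fitted by edgeR was 23.0% for Ces1d, 34.8% for Ppp1r1a, 32.7% for Slc15a5 and 34.9% for 1700001O22Rik, against a median of 11.6% over the tested genes. These values stood at the 84.2, 95.4, 94.3 and 95.5 percentiles. In WT alone, the coefficients of variation of Slc15a5 (42.6%) and 1700001O22Rik (40.5%) compare with a median of 9.70% over the tested genes. Per kilobase of the longest coding transcript, WT levels were 25.9 ± 5.78 CPM for Ppp1r1a, 18.7 ± 3.79 for Ces1d, 6.80 ± 2.76 for 1700001O22Rik and 5.28 ± 2.25 for Slc15a5 (SD, n = 6). The means of the last pair differ by less than either SD. In mdx/mTR the same scale gave 2.27 ± 1.39 for Ppp1r1a, 1.61 ± 0.518 for Ces1d, 0.400 ± 0.194 for 1700001O22Rik and 0.394 ± 0.135 for Slc15a5, where the means of the last pair again differ by less than either SD and those of the first pair by less than the SD of Ppp1r1a.

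In whole muscle, fewer cells of a type and less RNA per cell cannot be told apart. The summed CPM of 10 fast-fibre marker genes was 180959 to 210136 in WT and 138505 to 192398 in mdx/mTR, where it averaged 83.3% of WT, with 1 marker higher (Mylpf) and 2 lower (Myh4 and Tnnc2). Set against those markers, library by library, the levels were lower in mdx/mTR by 9.73-fold for Ces1d, 9.65-fold for Ppp1r1a, 11.0-fold for Slc15a5 and 13.8-fold for 1700001O22Rik. This is the contrast that chose the genes, and whether their RNA comes from fast fibres was not tested. The sum of 7 adipocyte markers lay between 191 and 237 CPM in the WT libraries and between 158 and 223 in the others, 89.4% of WT, with 1 of 6 tested markers lower (Fabp4). Most of that sum was Fabp4, which other cell types also express, and without it the range was 22.3 to 34.8 CPM among WT libraries and 19.7 to 61.2 among the others, 118% of WT. Of 6 hepatocyte markers, 4 (Ttr, Fgb, Fga and Serpina1a) had no count in any library and the sum stayed at or below 0.0821 CPM. Other cell types' markers moved as well: 7 of 7 tested macrophage markers were higher (sum 48.7 to 77.1 CPM in WT, 120 to 336 in mdx/mTR), as were 5 of 5 fibroblast markers (841 to 1559, 2160 to 4359) and 6 of 6 regenerating-fibre markers (20.6 to 23.4, 114 to 627). Of 7 slow-fibre markers, 5 were higher and 1 lower (114 to 238, 144 to 348), and of 5 Schwann cell markers none was higher and 3 were lower (70.3 to 86.6, 51.4 to 67.7). Beside these marker counts, 25.0% of all tested genes were higher and 23.4% lower. The part of these cell types in the levels of the 4 genes was not tested.

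In 3 libraries single genes or marker sums lay away from the rest of their group. WT 2, the lowest WT library for Slc15a5 and 1700001O22Rik, had the lowest Myh4 of its group, 49911 CPM against 63727 to 73019 in the other 5. It also had the highest levels of Myh1 (17094 CPM) and Myh2 (2161 CPM), genes of other fast myosins, and of Nnt, a mitochondrial transhydrogenase gene, at 38.2 CPM against 19.6 to 27.3. Library mdx/mTR 3, the highest of its group for 3 of the 4 genes, stood far above the other 5 for Nnt, at 70.3 CPM against 17.2 to 24.5. It was also the highest of its group for Adipoq, an adipocyte hormone gene, at 5.63 CPM against 1.90 to 4.27. Library mdx/mTR 5 had the highest sum of regenerating-fibre markers, 627 CPM against 114 to 276, and was neither lowest nor highest of its group for any of the 4 genes. Leaving out WT 2, mdx/mTR 3 and mdx/mTR 5 together gave log2 fold changes of -3.51 for Ces1d, -3.73 for Ppp1r1a, -3.97 for Slc15a5 and -4.64 for 1700001O22Rik. Their part in the spread was not tested.

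Ces1e, the paralog 3.41 kb from Ces1d, fell in mdx/mTR. Its level had a lowest, median and highest value of 0.472, 0.627 and 0.810 CPM in WT, from 17 to 29 counts, while mdx/mTR libraries held 1 to 3 counts each. The groups did not overlap, as for 12.6% of tested genes with mdx/mTR lower. Ces1e passed the filter on low counts through the WT libraries alone, which favoured a call in this direction. Its log2 fold change was -4.34 ± 0.34 (SE; edgeR adjusted p 7.5e-07), and the ratio of summed counts per library size, WT over mdx/mTR, was 22.5, with an exact 95% interval of 11.5 to 50.2 for counting error only. Ces1e and Ces1d share 0 stretches of 50 bases, and 3.21% of those of Ces1e occur in other genes. Per kilobase, Ces1e ran at 1.65% of the Ces1d level in WT and at 0.964% in mdx/mTR.

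Of the 18 other carboxylesterase genes listed, 17 are in the table and 4 were tested: 2 rose, 1 fell and 1 did not pass, with a median log2 fold change of 0.10 against 0.01 over all genes tested, of which 25.0% were higher and 23.4% lower. Ces2c, an enzyme gene of another subfamily, rose from 0.118 ± 0.0649 to 0.498 ± 0.220 CPM (log2 fold change 2.05 ± 0.39, edgeR adjusted p 7.2e-04), and 42.2% of its stretches occur in other genes, so its counts are uncertain. Its WT libraries held 1 to 8 counts and its mdx/mTR libraries 14 to 41. Ces1e and Ces2c each passed the filter on low counts through the group where it is high. That filter favoured the direction of both calls, so nothing is read from the count of rises and falls. Ces2g rose from 0.751 ± 0.107 to 1.42 ± 0.513 CPM (0.90 ± 0.22, adjusted p 0.0038). Ces1f, next to Ces1e, did not pass (-0.70 ± 0.41, adjusted p 0.175). A further 6 genes (Ces1b, Ces1c, Ces1g, Ces2a, Ces2f and Ces2h) had no count in any library, 7 more had at most 7 counts in a library, and they were not tested. Ces1d held 93.3% to 97.1% of the carboxylesterase counts of a WT library and 48.8% to 66.2% of those of an mdx/mTR library. The lower share goes with the fall for which Ces1d was chosen, and the shares are not set per length.

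**Figure D2:**
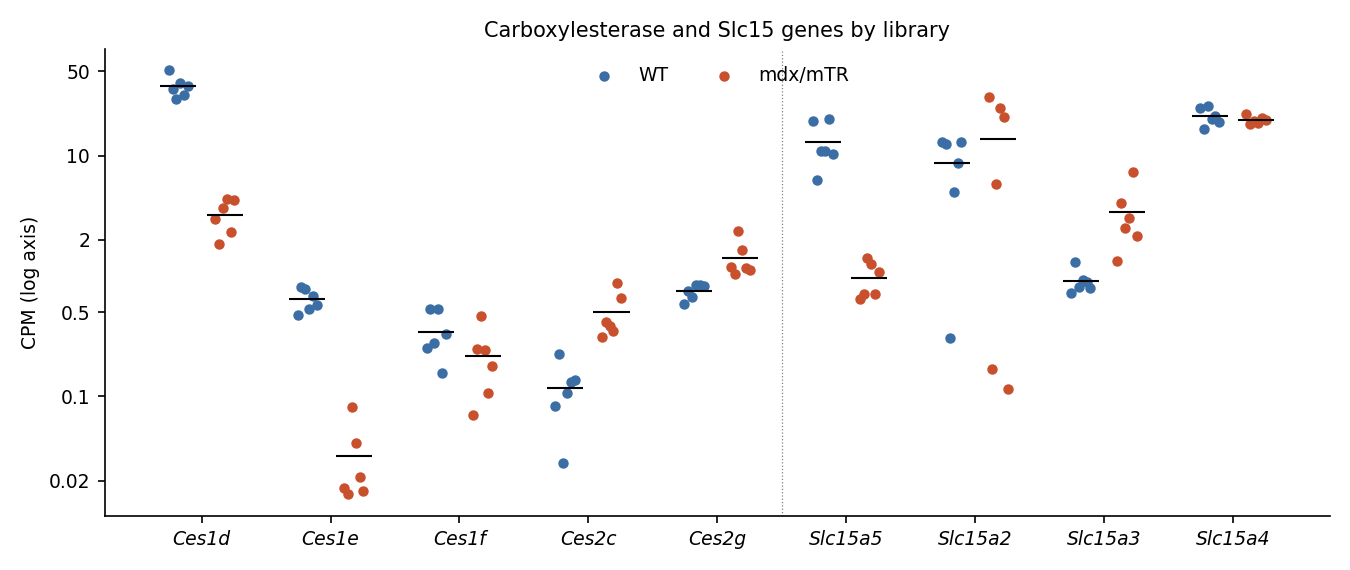
CPM on a log axis for Ces1d and the 4 tested carboxylesterase paralogs, and for Slc15a5 and the 3 tested Slc15 paralogs. Points are libraries, blue for WT and orange for mdx/mTR, with a line at the group mean. Ces1d and Ces1e are low in all 6 mdx/mTR libraries, while Slc15a4 stays at about 20 CPM and Slc15a2 spreads over more than 1 log unit in both groups.

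Around Ces1d in triglyceride hydrolysis, 9 of 15 tested genes passed, 3 higher and 6 lower, with a median log2 fold change of -0.07. Of all tested genes 48.3% passed, 25.0% higher and 23.4% lower. With library totals alone as scaling the split was 6 higher and 4 lower. Plin5, a lipid-droplet coat protein of muscle, fell from 51.9 ± 8.93 to 16.8 ± 6.31 CPM (log2 fold change -1.64 ± 0.20, edgeR adjusted p 3.1e-05). Lpl, the lipase that frees fatty acids from circulating lipoproteins, fell from 772 ± 115 to 309 ± 51.5 CPM (-1.32 ± 0.12, adjusted p 2.8e-06). Abhd6, a monoacylglycerol lipase, fell from 6.29 ± 0.603 to 2.77 ± 0.346 CPM (-1.18 ± 0.10, adjusted p 1.6e-06). The other 3 that fell were Abhd5, Lipe and Mgll, and the 3 that rose were Lipa, Pnpla3 and Abhd12. The log2 fold changes of the list ran from -1.64 to 1.09, all above that of Ces1d, which was chosen for its fall.

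The 8 tested PP1 catalytic and inhibitor genes around Ppp1r1a had log2 fold changes between -0.34 and 0.26. Of these, 2 rose and 4 fell (median log2 fold change -0.15; 25.0% and 23.4% of all tested genes), but with library totals alone 2 rose and none fell, and with upper-quartile scaling 2 rose and 1 fell. Among the catalytic subunits, Ppp1ca rose by 0.21 ± 0.04 (edgeR adjusted p 6.8e-04), Ppp1cc fell by 0.34 ± 0.08 (adjusted p 0.0034), and Ppp1cb, the most abundant, was called lower at -0.18 ± 0.06 (adjusted p 0.0317) but not after leaving out WT 1, WT 3, WT 6 or mdx/mTR 2 (adjusted p 0.0564 to 0.0607). Of the inhibitors, Ppp1r14c rose by 0.26 ± 0.07 (adjusted p 0.0070). Ppp1r2 (-0.12 ± 0.04, adjusted p 0.0280) and Ppp1r14b (-0.22 ± 0.09, adjusted p 0.0435) were called lower, and both calls were lost when single libraries were left out: WT 1 (adjusted p 0.0621) or mdx/mTR 2 (0.0527) for Ppp1r2, and any of WT 1, WT 3, WT 5, mdx/mTR 1, 2, 3 or 6 for Ppp1r14b (0.0619 to 0.0989). Ppp1r11 (-0.02 ± 0.07, adjusted p 0.868) and Ppp1r14a (-0.33 ± 0.19, adjusted p 0.156, but 0.0325 without WT 1) did not pass. The nearest relatives of inhibitor-1 were scarce in this muscle, with 30 counts in all for Ppp1r1b and 7 for Ppp1r1c.

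Of 6 tested genes for PP1 glycogen-targeting subunits, 1 rose and 2 fell, against 25.0% and 23.4% of all tested genes, and with library totals alone 1 rose and 1 fell. Ppp1r3a, the muscle subunit, fell from 657 ± 65.0 to 486 ± 67.9 CPM (-0.44 ± 0.10, edgeR adjusted p 0.0022), and Ppp1r3d rose by 0.69 ± 0.16 (adjusted p 0.0025). Ppp1r3f was called lower at -0.29 ± 0.10 (adjusted p 0.0326), a call lost without any of WT 1, 2 and 3 and mdx/mTR 1, 2 and 6 (adjusted p 0.0551 to 0.0795). Ppp1r3b (0.56 ± 0.34, adjusted p 0.190), Ppp1r3c (-0.46 ± 0.31, adjusted p 0.242) and Ppp1r3e (-0.06 ± 0.13, adjusted p 0.754) did not pass. Of 9 glycogen enzyme genes, 6 fell and none rose, with a median of -0.26, where 23.4% of all tested genes were lower and 25.0% higher. With library totals alone 3 fell, and with a library left out 4 to 6 fell. The 6 include Gyg, the glycogen primer (-0.32 ± 0.07, adjusted p 0.0014), Phka1, a phosphorylase kinase subunit (-0.55 ± 0.12, adjusted p 0.0018), and Pygm, the muscle glycogen phosphorylase (-0.44 ± 0.11, adjusted p 0.0036).

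On the kinase side of the inhibitor-1 switch, of 23 tested PKA signalling genes 7 rose and 10 fell (median -0.11), against 25.0% and 23.4% of all tested genes. With library totals alone 10 rose and 8 fell. Prkar2a, a regulatory subunit, fell from 339 ± 17.9 to 217 ± 16.8 CPM (-0.64 ± 0.06, edgeR adjusted p 2.9e-06), and the catalytic subunit gene Prkacb fell from 85.0 ± 4.46 to 62.4 ± 2.95 CPM (-0.45 ± 0.05, adjusted p 8.1e-06). Pkig, a PKA inhibitor, rose from 52.8 ± 2.46 to 69.9 ± 3.75 CPM (0.40 ± 0.05, adjusted p 1.7e-05). These 3 genes were named for the smallest p of the list. Their groups did not overlap, which held for 25.2% of all tested genes.

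Among the Slc15 paralogs, 3 of 4 were tested and 1 passed, against 48.3% of all tested genes. Slc15a3, a lysosomal histidine and peptide carrier of immune cells, had a lowest, median and highest level of 0.722, 0.847 and 1.31 CPM in WT and of 1.32, 2.78 and 7.35 CPM in mdx/mTR. Its log2 fold change was 1.90 ± 0.35 (edgeR adjusted p 6.4e-04). It rose beside the macrophage markers, and their part was not tested. Slc15a4, another lysosomal carrier, was at 21.3 ± 3.48 and 19.7 ± 1.40 CPM (-0.12 ± 0.10, adjusted p 0.332). Slc15a2, a plasma-membrane peptide carrier, spread between 0.305 and 13.0 CPM among WT libraries and between 0.115 and 30.7 CPM among mdx/mTR libraries (0.65 ± 0.92, edgeR adjusted p 0.586), and limma-voom gave the opposite sign (-0.95). Per kilobase, Slc15a5 and Slc15a4 had WT levels of 5.28 and 7.80 CPM, and mdx/mTR levels of 0.394 and 7.20 CPM. Of 7 tested genes for histidine dipeptides and small carriers, 2 rose and 1 fell, against 25.0% and 23.4% of all tested genes (5 rose and none fell with library totals alone, and 5 rose and 1 fell with upper-quartile scaling). Slc6a6, the taurine carrier, fell from 167 ± 13.5 to 125 ± 20.7 CPM (-0.43 ± 0.09, adjusted p 0.0022). Slc36a4 (0.49 ± 0.15, adjusted p 0.0166) and Hdc, histidine decarboxylase (0.97 ± 0.31, adjusted p 0.0174), rose, and neither passed without WT 2, mdx/mTR 3 and mdx/mTR 5 (adjusted p 0.116 and 0.0850).

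**Figure D3:**
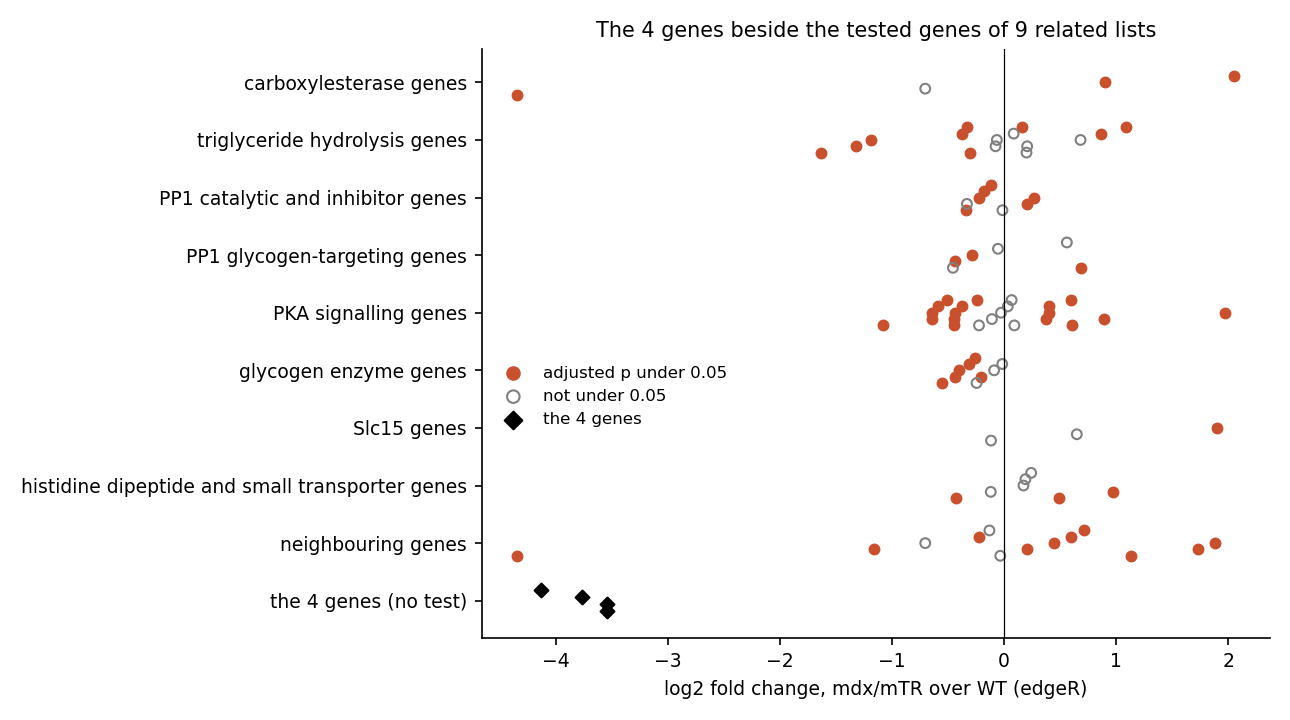
edgeR log2 fold changes, mdx/mTR over WT, of the tested genes of 9 related lists, with the 4 genes as diamonds and no test for them. Filled points passed and open points did not. Every listed gene but Ces1e, which stands in 2 lists, lies to the right of the 4 genes, between -1.64 and 2.05. The 4 were chosen for their falls, and of all tested genes 15, these 4 included, lay at or below the smallest of those falls. Nothing is read from their place beside the lists.

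The genes next to the 4 in the genome, up to 3 coding genes on each side, went both ways. Of 13 tested neighbours 7 rose and 3 fell, with a median log2 fold change of 0.20, against 25.0% and 23.4% of all tested genes. The 3 that fell were Ces1e, Mgst1 and Strap. Mgst1, a membrane glutathione transferase gene 60.6 kb from Slc15a5, went from 34.8 ± 5.78 to 15.6 ± 2.09 CPM (-1.16 ± 0.11, edgeR adjusted p 4.7e-06). Strap, on the other side of Slc15a5, fell less (-0.22 ± 0.06, adjusted p 0.0051; -0.07, adjusted p 0.133, with library totals alone). Near 1700001O22Rik, Prrx2, a homeobox gene 41.3 kb away, rose by 1.73 ± 0.27 (adjusted p 1.6e-04) and Cstad rose by 1.14 ± 0.30 (adjusted p 0.0068). Nckap1l, a blood-cell actin regulator gene 27.4 kb from Ppp1r1a, rose by 1.88 ± 0.29 (adjusted p 1.6e-04), beside the macrophage markers, whose part was not tested.

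The genes whose levels were most like each of the 4 were found from log2(CPM + 0.5) centred on the WT mean, by the root mean square difference over the 12 libraries, among 11976 genes with a WT mean of at least 1 CPM. This measure is a description, since it includes the difference that chose the genes. Slc15a5 and 1700001O22Rik were each nearest to the other, at 0.27. Next came Ces1d for Slc15a5 (0.45) and Dusp26 for 1700001O22Rik (0.47). The nearest to Ppp1r1a were Dusp26 (0.33), Ces1d (0.40) and 0610040J01Rik (0.42). The nearest to Ces1d were Pgk1 (0.35), Dach2 (0.36) and Dusp26 (0.39), though 68.0% of the stretches of Pgk1 occur in other genes. 0610040J01Rik ranked 3 for Slc15a5 (0.49) and for 1700001O22Rik (0.48).

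How the genes vary together inside a group was not used to pick them, so pairs of the 4 were related within each group. The spread of each gene alone does bear on limits such as no overlap and an adjusted p. In WT, Slc15a5 and 1700001O22Rik had r = 0.907 (exact permutation p 0.00417, Benjamini-Hochberg adjusted p 0.050 over 12 relations) and rho = 0.943 (exact p 0.0167, adjusted p 0.200) over 6 libraries. Neither adjusted value is under 0.05. Without the libraries farthest from the median of Slc15a5, WT 1 and WT 5, r was 0.952. That value keeps WT 2, which lay below the rest of the group for both genes. With single libraries left out, r was 0.803 without WT 2 (exact permutation p 0.108), 0.956 without WT 1 (exact p 0.0750) and 0.856 without WT 5 (exact p 0.125). The unadjusted call is lost without any of these 3. With 5 libraries there are fewer pairings to permute. Yet the exact permutation p was 0.0167 without WT 3 and 0.00833 without WT 4 or WT 6. Without WT 1, WT 2 and WT 5 together, r was 0.403 over the few libraries left. The relation in WT therefore rests on those libraries, although r rose without WT 1 alone. In mdx/mTR the same pair had r = 0.679 (exact permutation p 0.0639, adjusted p 0.217) and rho = 0.657 (exact p 0.175, adjusted p 0.525), and r was 0.105 without mdx/mTR 3 and mdx/mTR 4, so that value rests on those libraries. Of the other relations, Ppp1r1a with Slc15a5 in mdx/mTR had r = 0.827 (exact permutation p 0.0306, adjusted p 0.183), rho = 0.714 (exact p 0.136, adjusted p 0.525) and r = 0.676 without mdx/mTR 2 and mdx/mTR 3. The other pairs had r between -0.692 and 0.282 in WT and between 0.239 and 0.781 in mdx/mTR. In all, 0 of 12 relations had an adjusted p under 0.05 and 2 had an unadjusted p under 0.05. The pairs share libraries and scaling factors.

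**Figure D4:**
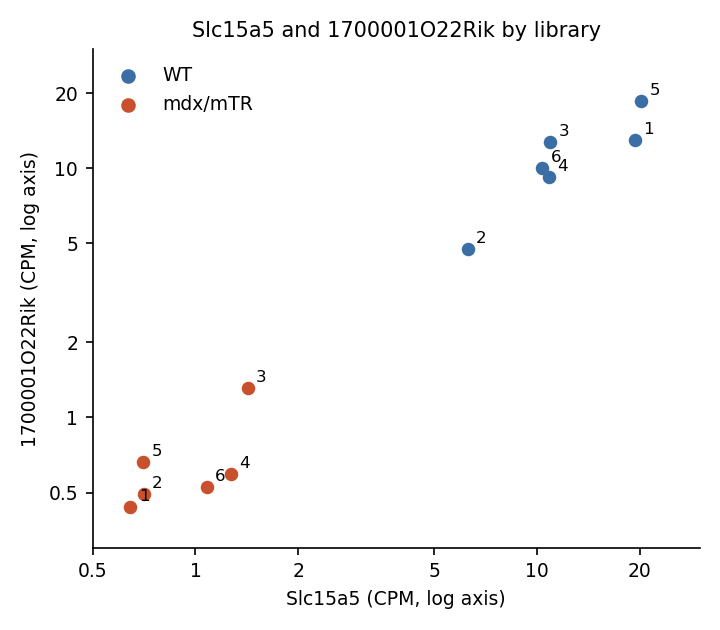
CPM of Slc15a5 and 1700001O22Rik on log axes, with 1 point per library and its replicate number, blue for WT and orange for mdx/mTR. WT 2 is lowest and WT 5 highest on both axes, and mdx/mTR 3 is the highest mdx/mTR library on both.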

How the data were processed

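RNA of the tibialis anterior was sequenced in 12 libraries, 6 per group. The deposited counts are whole numbers, 1 row per gene symbol and 1 column per library, with 0 columns left unmatched. Per the submitters' processing notes, mm10, STAR, FastQC and DESeq2 were used; the counter, annotation, strand handling and versions are not given in the sources used here. A second table, per the file headers the authors' DESeq2 output, has a normalized mean signal, log2 fold changes and their errors, a score, and raw and adjusted p-values; only its log2 fold changes are printed.

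The count table went unchanged into edgeR 4.0.16 (R 4.3.3): filterByExpr (13937 genes, 99.97% of counts), TMM scaling, group as the only term, quasi-likelihood test, Benjamini-Hochberg adjustment over all genes tested, threshold 0.05. CPM uses TMM-scaled library sizes. The SE of a log2 fold change comes from dividing it by the root of its F statistic. Transcript lengths and 50-base stretches came from GENCODE M21, positions and promoters from the RefSeq tables of GRCm38.p6. Correlations used log2(CPM + 0.5) and exact two-sided permutation of 6 libraries (scipy 1.17.1), adjusted over 12 relations. No 2 replicates agreed within sampling noise (chi-square per degree of freedom 8.87 to 116), so none was treated as a duplicate.

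The 4 genes, the gene lists and the rules were chosen with earlier results of these data known. Named are the 4 genes; every tested carboxylesterase, PP1 and Slc15 gene; the 3 smallest p-values of each other list; up to 6 neighbours past the threshold; the 3 nearest profiles of each gene; the next 2 falls; and Dmd and Terc. Other genes, among them single markers, Myh1, Myh2, Adipoq, Nnt and the further triglyceride genes, were named after their values were seen. The alternatives were other filters, scalings, tools (DESeq2 1.42.0, limma-voom 3.58.1), a stricter threshold, a replicate block and each library left out; leaving out 3 libraries together was added after seeing the data.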

Additional observations from a re-analysis of the deposited data

Results flagged for a closer look

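A set of 110 groups of 6 values behind the text was checked for a highest or lowest library standing apart. The gap to the next library, divided by the group's range, had to exceed Dixon's 95% limit for 6 values. Myh1, Myh2 and Nnt were not in this set. WT 2 for Myh1 (17094 CPM, others 7864 to 9929) and Myh2 (2161 CPM, others 633 to 1151) also exceeds that limit, as does mdx/mTR 3 for Nnt (70.3 CPM, others 17.2 to 24.5). Myh4 and Nnt in WT 2 and Adipoq in mdx/mTR 3 do not exceed it. Of the 110 groups checked, 11 exceeded it, and chance gives about 1 in 20 (5.5 of 110). Of the 4 genes, 1700001O22Rik had one: mdx/mTR 3 at 1.31 CPM, above 0.436 to 0.660 in the other 5. The same library was high for 0610040J01Rik (2.90 CPM, others 1.02 to 1.49), a gene of nearby profile. WT 2 stood apart for Slc15a3 (1.31 CPM, others 0.722 to 0.929), Phka1 (1200 CPM, below 1726 to 1913), Strap (146 CPM, below 161 to 164) and the slow-fibre marker sum (238 CPM, others 114 to 141). Library mdx/mTR 5 stood apart for Slc6a6 (165 CPM, others 109 to 126) and the regenerating-fibre marker sum (627 CPM, others 114 to 276). The remaining ones were Ppp1r2 in WT 1 (82.2 CPM, others 76.5 to 78.3), Dach2 in WT 4 (8.15 CPM, below 9.63 to 10.4) and the hepatocyte marker sum in WT 6 (0.0821 CPM, others 0 to 0.0279).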

How the results depend on the processing

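The log2 fold changes of the 4 genes kept their sign under every alternative run. Over all of them they ranged from -3.65 to -3.40 for Ces1d, -3.88 to -3.39 for Ppp1r1a, -3.97 to -3.59 for Slc15a5 and -4.64 to -3.94 for 1700001O22Rik. Leaving out each library in turn gave 6125 to 6816 called genes, and the number at an adjusted p under 0.01 was 4621. Scaling mattered most for small changes: with library totals alone the median over all genes moved by 0.16, 78.2% of calls were higher against 51.6%, and upper-quartile scaling gave 59.4%. Requiring at least 1 CPM in at least 6 libraries left 1 carboxylesterase gene tested and 1 called. The PP1 catalytic and inhibitor count of 6 became 3 with upper-quartile scaling and 2 with library totals, and 3 to 6 with a library left out (3 without mdx/mTR 2). Glycogen enzymes went from 6 to 3 with library totals, to 4 with upper-quartile scaling or either other filter, and to 4 to 6 with a library left out. They went to 7 with DESeq2, limma-voom or a replicate block. The histidine and small-carrier count of 3 became 6 with upper-quartile scaling, 5 with library totals, and 3 to 5 with a library left out (5 without mdx/mTR 1). Small changes turned sign with library totals: Ppp1r2 0.0318, Ppp1r11 0.143, Ppp1r3e 0.108 and Slc15a4 0.0417. Ppp1r11 was also at 0.0257 with upper-quartile scaling and ran from -0.0635 to 0.010 with a library left out, Ppp1r3e from -0.13 to 0.0045, and Slc15a2 was at -0.95 with limma-voom. The cause was not tested. The replicate numbers do not pair the libraries throughout: same-numbered libraries correlated at -0.155 to 0.354, above 0.1 for 2 of 6 numbers, and 2 of 6 matched their own number best. Those 2 were numbers 1 (0.354) and 2 (0.285), and whether their libraries share anything else was not tested. With a replicate block 6420 genes were called, 6197 of them shared and in the same direction; Ppp1r14b (adjusted p 0.0556) and Ppp1r3f (0.0537) lost their calls and Ppp1r3c (-0.50, adjusted p 0.0178) gained one. At this depth Ces1e in mdx/mTR, at 1 to 3 counts a library, is near the limit that a count of 0 allows.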

Other observations

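Slc15a2, a paralog of Slc15a5, had no common level within either group. Its WT libraries 1 to 6 stood at 12.8, 12.5, 0.305, 4.99, 8.62 and 13.0 CPM. Its mdx/mTR libraries 1 to 6 stood at 30.7, 0.169, 5.80, 24.6, 20.7 and 0.115 CPM.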
